A study of Mus musculus with 8 samples.

Results

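The histone genes were taken as every row of the count table whose symbol begins with Hist1h to Hist4h, H2af or H3f3, or is H1f0, H1fx or H1foo. This gave 81 of 21983 gene symbols. Of these, 67 are clustered genes, named after the gene clusters Hist1 to Hist4, and 14 are variant genes under other names. The clustered genes comprise 6 for the linker histone H1, 18 each for H2A and H2B, 12 for H3 and 13 for H4. The variants comprise 3 linker genes, 9 H2A genes and 2 H3 genes.

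The study measured RNA by sequencing in AML-12, an established mouse hepatocyte line with a wild-type genotype label. In 4 libraries the cells overexpressed the long non-coding RNA gene Gm47544, with no vector named in the sample titles. The overexpression is known only from these titles: Gm47544 itself was not analysed here, and no value below checks it. The other 4 libraries were controls with pLKO.1, a lentiviral vector backbone. All 8 came from cells grown in DMEM with serum, and the comparison asked which transcripts differed under Gm47544 overexpression. Whether the replicates of a group were separate cultures is not stated, so the p-values reflect the spread between libraries of a group, and that spread may be technical.

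Histones are the proteins around which DNA is wound: H2A, H2B, H3 and H4 form the core of the nucleosome, and H1 binds the linker DNA between nucleosomes. The clustered, replication-dependent genes supply histones for newly made DNA in S phase. Their mRNAs have no introns and normally end in a conserved stem-loop, bound by the stem-loop binding protein SLBP, in place of a poly(A) tail. Variant histones are made throughout the cell cycle mostly from ordinary polyadenylated mRNAs and replace the clustered histones in particular parts of chromatin or in non-dividing cells. Levels of clustered against variant genes depend on whether poly(A) RNA was selected for the libraries, a step not given in the sources used here.

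The stem-loop is the sequence mark of replication-dependent histone mRNA, and it was sought in the sense strand of the GENCODE M21 transcripts (GRCm38, the assembly that mm10 names) as GG, any pair of bases, CTTTT, any base, AG, any pair of bases and CC. It was present in 44 of 67 clustered genes (65.7%), in 1 of 14 variants (H2afx, 7.14%) and in 33 of 21843 other genes (0.151%); over all 21924 genes with a transcript the share was 0.356%. The windows below are from H2afx and from the 6 clustered genes with a stem-loop that were lower both in the test below and after correction for gene length, 5′ to 3′ in DNA letters, with the stem-loop in capitals.
Hist1h1c: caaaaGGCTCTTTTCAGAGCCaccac
Hist1h2ac: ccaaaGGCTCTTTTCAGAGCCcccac
Hist1h2be: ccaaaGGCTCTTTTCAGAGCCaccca
Hist1h3d: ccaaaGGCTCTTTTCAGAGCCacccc
Hist1h4i: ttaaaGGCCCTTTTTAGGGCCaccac
Hist1h4h: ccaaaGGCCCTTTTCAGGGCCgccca
H2afx: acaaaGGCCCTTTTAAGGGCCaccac
The H4 genes Hist1h4i and Hist1h4h and the variant H2afx shared the GGCCC stem, while the H1, H2A, H2B and H3 examples carried GGCTC. The annotated Hist1h1c, Hist1h2ac, Hist1h3d, Hist1h4i and H2afx transcripts continued for 840, 2010, 752, 330 and 822 bases beyond the loop, that of Hist1h2be for 1861 and that of Hist1h4h for 46 bases. No match was found in the annotated transcripts of Hist1h2bc and Hist2h2be, the most abundant clustered H2B genes. The search covered annotated transcripts only. Some are short, such as Hist1h4k at 312 and Hist1h2bl at 381 bases, and may end before the loop. A missing match therefore does not show that a gene lacks the stem-loop.

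Clustered histone genes are often arranged as divergent pairs that share a promoter, and 13 such pairs with starts at most 1000 bases apart were found among them. The intergenic promoters of 2 H2A and H2B pairs are shown because both genes of each pair could be tested. Both sequences are from RefSeq (GRCm38.p6), read on the minus strand towards the H2A gene, with 3 promoter motifs on either strand in capitals, which did not overlap here. These were the CCAAT box, the TATA box searched as TATAAA, and the octamer searched as ATGCAAAT, which is bound by the factor OCT1.
Hist1h2ac with Hist1h2bc, chr13:23683960-23684198: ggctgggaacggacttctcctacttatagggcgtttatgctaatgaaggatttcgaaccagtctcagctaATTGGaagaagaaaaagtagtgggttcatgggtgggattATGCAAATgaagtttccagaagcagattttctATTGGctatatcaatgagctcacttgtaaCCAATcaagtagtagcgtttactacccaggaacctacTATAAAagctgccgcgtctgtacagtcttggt
Hist1h2ae with Hist1h2bg, chr13:23571221-23571395: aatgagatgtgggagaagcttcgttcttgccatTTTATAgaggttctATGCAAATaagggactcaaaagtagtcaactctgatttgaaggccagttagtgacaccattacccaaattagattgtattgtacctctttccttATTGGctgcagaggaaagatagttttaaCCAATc
The first region held 3 CCAAT boxes, 1 TATA box and 1 octamer, and the second held 2, 1 and 1. Promoters of 75 members were matched through Entrez gene numbers or gene symbols, on the same chromosome. Within 250 bases before the start, the CCAAT box was found in 82.3% of 62 clustered and 69.2% of 13 variant promoters, against 34.5% of 27025 promoters of all genes. The TATA box was found in 46.8% of clustered and 7.69% of variant promoters, against 13% of all. The octamer was found in 21% of clustered and 7.69% of variant promoters, against 1.61% of all. These are counts of letters and not of bound sites.

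Library totals were 11016907 to 17338310 counts in overexpression libraries and 12256376 to 18965662 in controls. Expression differed over most of the transcriptome: 64.4% of 11520 genes tested passed an adjusted p of 0.05 in the quasi-likelihood test of edgeR, 32.3% higher and 32.1% lower. Control library 3 stood apart, at 17.7 on the first principal component, against -46 to -39.4 in overexpression libraries and 45.7 to 56.6 in the other controls. Of 11 tested hepatocyte markers 3 were higher and 3 lower, with a summed level of 4420 to 4840 CPM in overexpression libraries and 4600 to 7170 CPM in controls. The keratin genes Krt8 and Krt18 were the largest parts of this sum, which hides large shifts in both directions. Alb had a mean of 267 CPM in overexpression libraries and 22.3 CPM in controls (log2 fold change 3.58). Ttr had 279 and 1320 CPM in the same order (log2 fold change -2.25). Cholangiocyte markers (1 higher and 2 lower of 4 tested) summed to 4480 to 5080 CPM in overexpression libraries and 2790 to 4140 CPM in controls. The higher gene was Spp1, with a mean of 2730 CPM in overexpression libraries and 943 CPM in controls. Krt19 (1700 and 2250 CPM) and Sox9 (57.9 and 91.3 CPM, overexpression first) were lower. Epcam had 0 and 1 counts and Cftr 2 and 7 counts in the same order. Fibroblast markers (2 higher of 2 tested, with Col1a2, Col3a1 and Lrat at 0) summed to 9.77 to 17.4 CPM in overexpression libraries and 3.56 to 5.38 CPM in controls. Macrophage markers (1 lower of 2 tested, with Adgre1 and Clec4f at 0) summed to 9.94 to 13.2 CPM in overexpression libraries and 26.7 to 32.6 CPM in controls. Endothelial markers (1 higher of 1 tested) summed to 1.29 to 2.18 CPM in overexpression libraries and 0.125 to 0.536 CPM in controls. The part of these differences in the histone results was not tested.

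Histone transcripts were lower in the overexpression libraries, among clustered and variant genes alike, while the abundant H3.3 genes H3f3a and H3f3b did not pass the test. All histone genes together held 0.232%, 0.243%, 0.25% and 0.241% of the counts in overexpression libraries 1 to 4, against 0.335%, 0.327%, 0.282% and 0.346% in controls 1 to 4. The 4 overexpression values all lay below the 4 control values. The 67 clustered genes summed to 93.9 ± 4.75 CPM in overexpression libraries and 174 ± 25.2 CPM in controls, and the 14 variants to 2220 ± 73.5 and 3210 ± 414 CPM in the same order (SD, n = 4 each; CPM is the read count scaled to the library size). The log2 ratios of these sums were -0.89 for clustered genes and -0.54 for variants. RNA from a mixture of cells cannot tell fewer cells that make a transcript, such as cells in S phase, from less of it in each cell.

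Of the 70 histone genes with any count, 24 passed the filter on low counts, 16 clustered and 8 variant. By the quasi-likelihood test of edgeR, with p-values adjusted over all 11520 genes, 10 clustered genes and 6 variants were lower, where 32.1% of all tested genes were lower. None was higher, also at an unadjusted p of 0.05, in DESeq2 and in limma-voom, where 32.3% of all genes were higher, and all 24 fold changes were below 0. The groups did not overlap for 13 of the 24 genes, each lower in overexpression, where 27.5% of all genes were lower and 28.5% higher without overlap. The median log2 fold change was -1.15 for the tested clustered genes and -0.64 for the tested variants, against 0.000406 for all tested genes. These counts and medians describe only the genes that passed. The filter let in 10 clustered genes that reached its level in fewer than 4 overexpression libraries and 3 that reached it in fewer than 4 controls, so more of them entered through the controls than through the overexpression libraries. With no filter, 19 of 60 clustered genes were lower and 1 (Hist1h1b) was higher, and 6 of 10 variants were lower, against 24.2% lower and 24.5% higher among 16281 genes. Without control library 3, the counts of lower genes stayed at 10 clustered and 6 variant.

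The tested clustered genes had a median exon length of 1202 bases and the tested variants one of 1943 bases. Most histone fold changes lay nearer 0 once a trend on exon length was removed. With a trend on exon length removed from each library, 7 clustered genes and 4 variants were lower, where 60.7% of all genes passed, 31.1% lower and 29.6% higher, and no histone gene was higher. The medians were then -0.69 for clustered genes and -0.18 for variants, against -0.00949 for all genes, and the log2 ratios of the summed levels were -0.38 and -0.24, with the trend removed from the tested genes and the others left as counted. With a trend on GC content removed, 12 clustered genes and 8 variants were lower and none was higher, where 71.3% of all genes passed, 35.5% lower and 35.9% higher. With both trends removed, 7 clustered genes and 5 variants were lower and 1 clustered gene was higher, where 68.5% of all genes passed, 33.8% lower and 34.7% higher. Scaling by library totals alone moved the median of all genes to 0.128. The value with the length trend removed is therefore given beside each tested gene named below as its length-adjusted log2 fold change.

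**Figure D1:**
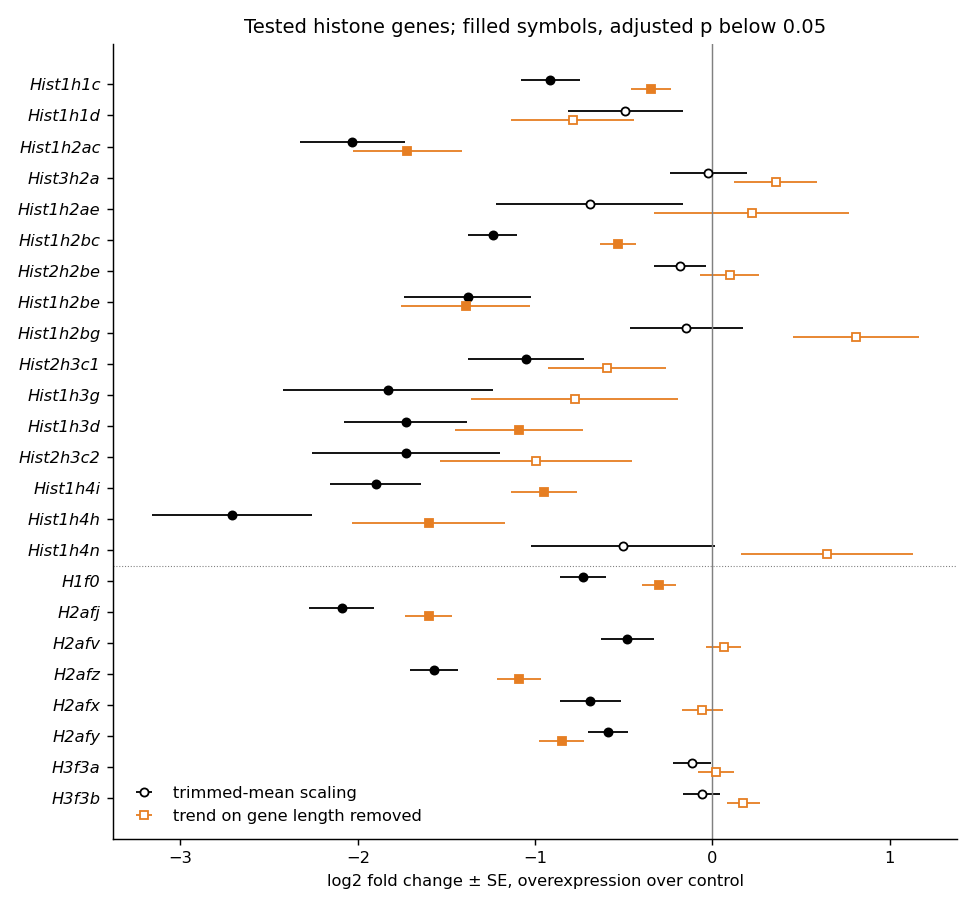
Log2 fold change of each tested histone gene, overexpression over control, with standard error bars; black circles use trimmed-mean scaling, orange squares have the trend on gene length removed, and filled symbols passed an adjusted p of 0.05. Clustered genes stand above the dotted line and variants below it; Hist1h4h at -2.71 and H2afj at -2.09 lie farthest left under trimmed-mean scaling, and for most genes the orange value lies nearer 0 than the black one.

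Among the variants, H1f0 encodes H1.0, a linker histone known to build up in cells that have left the cell cycle. It had 586, 610, 605 and 574 CPM in overexpression libraries, against 1040, 966, 754 and 1180 CPM in controls. The groups did not overlap, and control library 3 was the lowest control. H1f0 had a log2 fold change of -0.73 (SE 0.131; edgeR, adjusted p = 0.00038) and -0.30 length-adjusted, which still passed. H1f0 made up 93% ± 0.463 of the H1 level per kb of exon in overexpression libraries and 92.3% ± 0.824 in controls. The linker gene H1fx had no counts, and the oocyte linker gene H1foo had 0 counts in overexpression libraries and 2 in controls.

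H2afj encodes H2A.J, an H2A variant that differs little from clustered H2A and is known to accumulate in senescent human fibroblasts with DNA damage. It had 97.7, 103, 103 and 90.6 CPM in overexpression libraries, against 463, 376, 278 and 564 CPM in controls. Every overexpression library was far below the lowest control, again library 3. H2afj thus fell, with a log2 fold change of -2.09 (SE 0.183; edgeR, adjusted p = 1.99e-06) and -1.60 length-adjusted. Over 18 alternative settings it ranged from -2.27 to -1.38 and passed in each. On chromosome 6 (GRCm38), H2afj at chr6:136808244-136810074 is close to Hist4h4 at chr6:136801553-136804415, the H4 gene that is alone in the Hist4 cluster. Hist4h4 was below the count filter, with 9 counts over the overexpression libraries and 33 over the controls, a ratio per depth of 0.294 (exact 95% interval 0.124 to 0.628, counting error only).

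H2afz and H2afv encode the H2A.Z proteins H2A.Z.1 and H2A.Z.2, which mark promoters and regulatory elements. H2afz had 31.8, 24.3, 22.3 and 24.7 CPM in overexpression libraries, against 76.7, 80, 67.7 and 82.8 CPM in controls, with no overlap. Its log2 fold change was -1.57 (SE 0.133; edgeR, adjusted p = 1.61e-06) and -1.09 length-adjusted, and it passed in all 18 alternatives. H2afv had 157, 150, 140 and 152 CPM in overexpression libraries, against 246, 188, 153 and 248 CPM in controls. The groups overlapped through control library 3. The log2 fold change of H2afv was -0.48 (SE 0.148; edgeR, adjusted p = 0.012), but 0.0633 length-adjusted, where it did not pass. Without control library 3 it was -0.63.

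H2afx, whose phosphorylated product marks DNA breaks, is the variant that carries the stem-loop shown above. It had 41.5, 44.3, 46.1 and 44.3 CPM in overexpression libraries, against 81.5, 60.8, 49.5 and 92.8 CPM in controls, with no overlap. For H2afx the log2 fold change was -0.69 (SE 0.171; edgeR, adjusted p = 0.00345), and the call was lost with the length trend removed (-0.0563). H2afy encodes macroH2A1, a variant with a large non-histone domain that is enriched on silent chromatin. It had 174, 165, 165 and 160 CPM in overexpression libraries, against 245, 249, 214 and 292 CPM in controls, with no overlap. Its log2 fold change was -0.59 (SE 0.113; edgeR, adjusted p = 0.000584) and grew to -0.85 length-adjusted. Its exons, at 6809 bases, are the longest among the variants.

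H3f3a and H3f3b both encode H3.3, the H3 variant that can be deposited outside S phase. H3f3b had 719, 802, 879 and 819 CPM in overexpression libraries, against 880, 869, 773 and 832 CPM in controls. H3f3a had 320, 331, 345 and 345 CPM in overexpression libraries, against 404, 367, 366 and 313 CPM in controls. Both genes overlapped between the groups. Their log2 fold changes of -0.0593 (SE 0.105) and -0.11 (SE 0.106) did not pass (edgeR, adjusted p = 0.634 and 0.364). Both passed as lower with a trend on GC content removed (-0.47 for H3f3b and -0.51 for H3f3a), and H3f3a also with both trends removed (-0.23). Both turned positive, without passing, under library totals alone and with the length trend removed, where H3f3b was at 0.17 and H3f3a at 0.0207.

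The remaining H2A variants were near or at 0. H2afy2, the gene of macroH2A2, had 14 counts over the overexpression libraries and 13 over the controls, a ratio per depth of 1.16 (exact 95% interval 0.506 to 2.68, counting error only). H2afb1, H2afb2 and H2afb3, genes of the short testis-type variant H2A.B, had no counts. Antisense genes lie opposite H1f0 (Gm49544), H2afy (Gm47071) and H3f3a (H3f3aos), and reads of a gene and its antisense partner cannot be told apart here because the strand setting of the counting is not given.

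**Figure D2:**
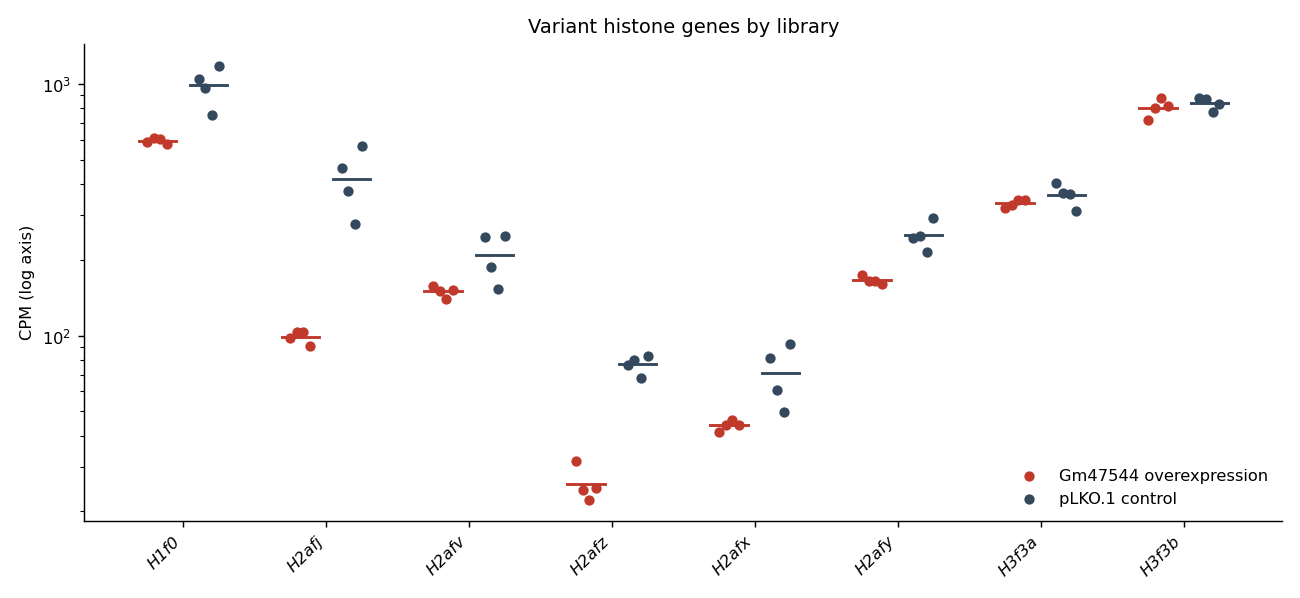
CPM of the 8 tested variant genes on a log axis, with 1 point per library (4 overexpression libraries left, 4 controls right) and a line at the group mean. H2afj sat between 90.6 and 103 CPM in overexpression libraries and between 278 and 564 CPM in controls, while the points of H3f3a and H3f3b overlapped.

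The differences among H2A variants altered their order. Levels are compared between genes per kb of exon, with the exons of all transcripts of a gene joined. For H2afy this length is 6809 bases, against 4018 in its longest transcript, and for H2afz it is 1776 against 1069. The places of H2afx, H2afy and H2afz, and all shares, depend on this choice of length. For H2afj (1831 bases) and H2afv (1633 bases) the 2 lengths are the same. H2afv led the H2A genes in overexpression libraries at 91.6 ± 4.34 CPM per kb, ahead of H2afj at 53.9 ± 3.25, H2afx at 31.8 ± 1.38, H2afy at 24.4 ± 0.888 and H2afz at 14.5 ± 2.34. In controls H2afj led at 230 ± 66.6 CPM per kb, ahead of H2afv at 128 ± 28.4, H2afx at 51.4 ± 14.1, H2afz at 43.2 ± 3.7 and H2afy at 36.7 ± 4.67 (SD, n = 4). The control values of neighbours from H2afx to H2afy overlapped. H2afj made up 23.4%, 25.2%, 25.8% and 22.6% of the summed H2A level in overexpression libraries, against 45.8%, 44.9%, 42.2% and 49% in controls. H2afv made up 42.1%, 41.1%, 39.2% and 42.4% in overexpression libraries, against 27.3%, 25.2%, 26% and 24.1% in controls. Neither share overlapped between the groups, and in both genes control library 3 lay among the controls. The clustered H2A genes held 2.68% ± 0.382 in overexpression libraries and 2.22% ± 0.395 in controls.

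**Figure D3:**
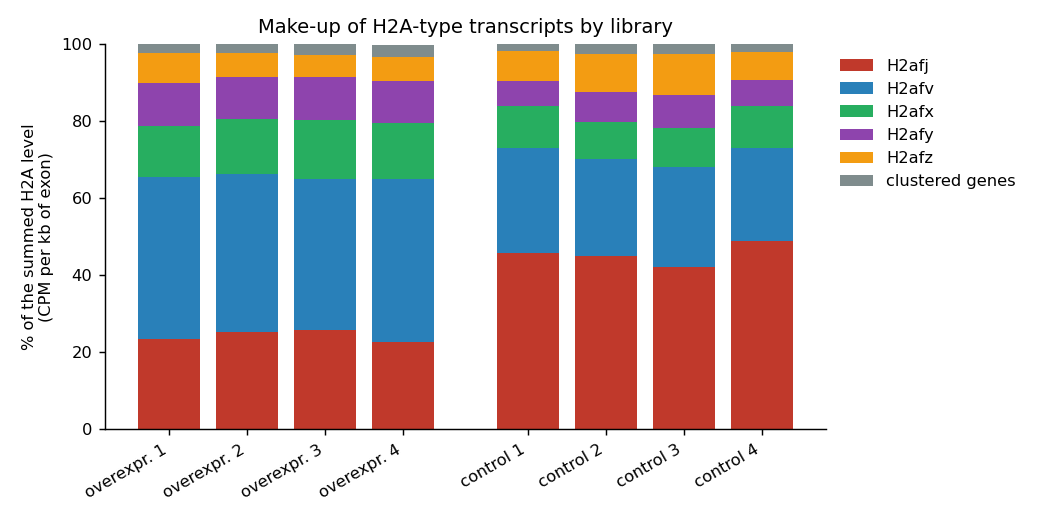
Share of each H2A-type gene, or of the clustered H2A genes together, in the summed H2A level (CPM per kb of exon) of each library, in percent. The H2afj band spans 22.6% to 25.8% in the 4 overexpression libraries and 42.2% to 49% in the 4 controls, and the H2afv band spans 39.2% to 42.4% and 24.1% to 27.3% in the same order.

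The H3.3 genes made up most of the counted H3 level in both groups. Shares of clustered against variant genes, here and above, depend on whether poly(A) RNA was selected. They also depend on whether reads that fit several genes were dropped. The sources used here give neither. H3f3b held 72.7% ± 1.24 of the H3 level per kb in overexpression libraries and 71.1% ± 1.9 in controls, and H3f3a held 25.8% ± 0.895 and 26.1% ± 1.95. The clustered H3 genes held 2.01%, 1.29%, 1.22% and 1.67% in overexpression libraries, against 3.23%, 2.67%, 2.56% and 2.99% in controls, with no overlap. Across all histone genes, the share of counts on clustered genes was 4.06% ± 0.166 in overexpression libraries and 5.14% ± 0.192 in controls (SD, n = 4), again with no overlap.

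Within the clustered genes each of the 5 classes had a lower summed level in the overexpression libraries, and H4 had the lowest ratio under trimmed-mean scaling. The summed level of H4 genes was 6.41 ± 0.814 CPM in overexpression libraries and 18.7 ± 5.61 CPM in controls. For H3 it was 4.21 ± 0.854 and 8.97 ± 1.12 CPM, and for H1 34.4 ± 2.17 and 63.9 ± 15.9 CPM, overexpression first. For H2A it was 5.13 ± 0.507 and 8.96 ± 0.301 CPM, and for H2B 43.8 ± 2.12 and 73.6 ± 3.23 CPM, in the same order (SD, n = 4). Sums over a class do not depend on how reads of near-identical copies were divided within it. They do depend on whether such reads were dropped, which no source used here gives. With each class summed to 1 row before the fit, the log2 fold changes were -1.54 (SE 0.223) for H4, -1.10 (SE 0.18) for H3, -0.89 (SE 0.165) for H1, -0.80 (SE 0.143) for H2A and -0.75 (SE 0.102) for H2B. These class values carry no length correction. Over the tested genes of a class, the median log2 fold change was -1.90 for H4, -1.73 for H3, -0.70 for H1, -0.69 for H2A and -0.71 for H2B. With the length trend removed it was -0.95 for H4, -0.89 for H3, -0.57 for H1 and -0.22 for H2B, and above 0 for H2A, at 0.22. These medians rest on 3 tested genes for H4, 4 for H3, 2 for H1, 3 for H2A and 4 for H2B. All tested H3 genes and some of the H4, H2A and H2B genes reached the level of the count filter in fewer than 4 overexpression libraries, which can lower their medians.

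**Figure D4:**
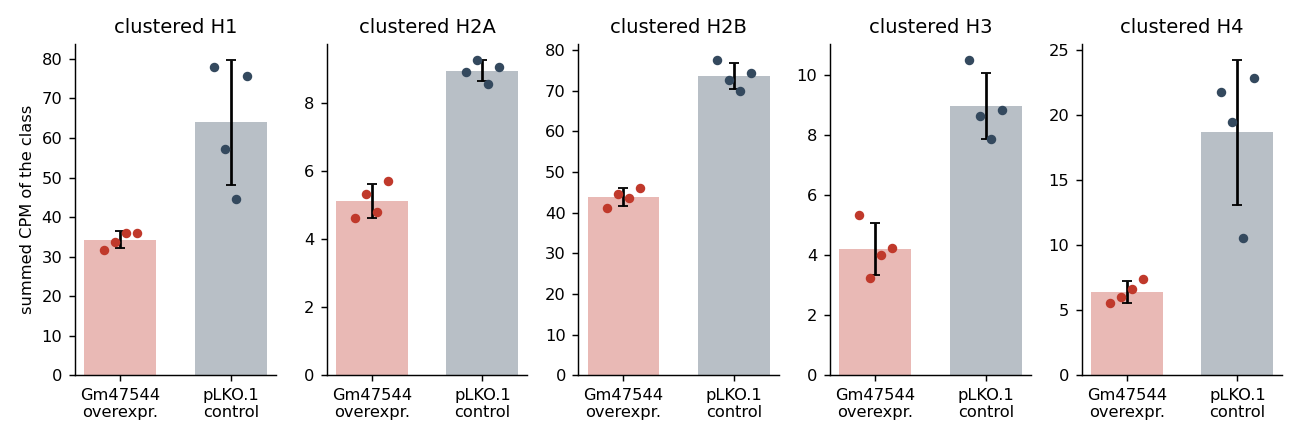
Summed CPM of the clustered genes of each class, with a bar at the mean, an error bar of 1 SD and 1 point per library (4 overexpression libraries left, 4 controls right); each panel has its own axis from 0. No overexpression point reaches a control point in any class, and the lowest H4 control, at 10.6 CPM, is library 3.

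The clusters differed in their values. The 54 genes of the Hist1 cluster on chromosome 13 summed to 66.2 ± 3.44 CPM in overexpression libraries and 140 ± 29.1 CPM in controls, a log2 ratio of -1.08. The 10 genes of the Hist2 cluster on chromosome 3 summed to 25.4 ± 2.37 CPM in overexpression libraries and 31.1 ± 4.01 CPM in controls, a log2 ratio of -0.29 with overlapping groups. The difference between these ratios was not tested. Hist2h2be, which held most of the Hist2 sum, together with Hist1h1c, Hist1h2bc and Hist1h4i, held 81.2% ± 1.18 of all clustered counts in overexpression libraries and 80.6% ± 1.18 in controls.

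Hist1h1c, the gene of the linker histone H1.2, was the most abundant clustered gene per kb. It had 30.4, 32.2, 34.3 and 33.7 CPM in overexpression libraries, against 75.1, 54.6, 42.7 and 74.1 CPM in controls. The groups did not overlap, and control library 3 was the lowest control. Hist1h1c had a log2 fold change of -0.92 (SE 0.167; edgeR, adjusted p = 0.000434) and -0.35 length-adjusted, and the call was lost with the length and GC trends both removed (-0.13). Hist1h1d, the gene of H1.3, had 1.07 ± 0.201 CPM in overexpression libraries and 1.53 ± 0.617 CPM in controls, and its log2 fold change of -0.49 (SE 0.326), -0.79 length-adjusted, did not pass. It passed as lower with the GC trend removed (-0.91), with both trends removed (-1.03) and in limma-voom (-0.70).

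The H2A class held only low genes. Hist1h2ac had 0.514, 0.771, 0.349 and 0.447 CPM in overexpression libraries, against 2.65, 2.15, 2.37 and 1.84 CPM in controls, from 30 and 132 counts in all. The groups were far apart. Like Hist1h2ae, Hist1h2be and Hist1h4h below, Hist1h2ac reached the level of the count filter in fewer than 4 overexpression libraries. The filter thus favoured genes high in controls. For Hist1h2ac the log2 fold change was -2.03 (SE 0.295; edgeR, adjusted p = 8e-05), -1.72 length-adjusted, and it passed in all 18 alternatives. Hist3h2a, in the Hist3 cluster on chromosome 11, had 2.13 ± 0.381 CPM in overexpression libraries and 2.18 ± 0.217 CPM in controls, a log2 fold change of -0.0221 (SE 0.217) whose sign varied with the setting (0.36 length-adjusted). It overlaps Trim17 on the same strand. Hist1h2ae had 0.0857, 0.386, 0.436 and 1.64 CPM in overexpression libraries, against 1.15, 0.858, 1.12 and 1.08 CPM in controls. Its log2 fold change of -0.69 (SE 0.528), 0.22 length-adjusted, did not pass, but without overexpression library 4, the highest, it was -1.71 and passed (edgeR, adjusted p = 0.00704).

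In the H2B class, the 2 abundant genes differed in their values. Hist1h2bc had 17.4, 17.5, 20.2 and 17.1 CPM in overexpression libraries, against 49.1, 39.8, 34.4 and 47.2 CPM in controls, with no overlap. Its log2 fold change was -1.24 (SE 0.14; edgeR, adjusted p = 1.23e-05), -0.53 length-adjusted, and it passed in all 18 alternatives. Hist2h2be had 19.9, 24.2, 20.9 and 26.1 CPM in overexpression libraries, against 22.6, 27.2, 31.2 and 22.2 CPM in controls. The groups overlapped, control library 3 being the highest here. The log2 fold change of Hist2h2be, -0.18 (SE 0.147) and 0.0971 length-adjusted, did not pass except with the GC trend removed (-0.46). The difference between the fold changes of these 2 genes was not tested. Hist1h2be, at 0.488 ± 0.169 CPM in overexpression libraries and 1.33 ± 0.393 CPM in controls, fell by 1.38 on the log2 scale (SE 0.359; edgeR, adjusted p = 0.00458) and was at -1.39 length-adjusted, although its exons overlap those of Hist1h1e on the same strand. Hist1h2bg, at 0.954 ± 0.305 CPM in overexpression libraries and 1.07 ± 0.257 CPM in controls, had a log2 fold change of -0.15 (SE 0.321), 0.81 length-adjusted, and did not pass, but was higher (1.01, edgeR, adjusted p = 0.0333) with both trends removed.

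Set beside the promoters shown above, Hist1h2ac and Hist1h2bc both fell, while neither Hist1h2ae nor Hist1h2bg passed. Of the other 11 divergent pairs, none had both genes past the count filter. Hist2h2ac, the divergent partner of Hist2h2be, had 1 count over the overexpression libraries and 12 over the controls, a ratio per depth of 0.0898 (exact 95% interval 0.0021 to 0.607). In another pair, Hist1h2ag had 14 and 12 counts and Hist1h2bj had 2 and 23, overexpression first. These are examples, and whether partners moved together was not tested.

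All 4 tested H3 genes were lower, each at low counts, and all 4 reached the level of the count filter in fewer than 4 overexpression libraries, so the filter favoured genes high in controls. The 8 H3 genes below the filter summed to 2.21 ± 0.54 CPM in overexpression libraries and 3.35 ± 0.28 CPM in controls (SD, n = 4); among them Hist1h3e had 23 counts over the overexpression libraries and 22 over the controls, a ratio per depth of 1.13 (exact 95% interval 0.6 to 2.12). Hist1h3d had 0.171, 0.386, 0.436 and 0.447 CPM in overexpression libraries, against 1.24, 1.02, 1.25 and 1.46 CPM in controls. There was no overlap, and the log2 fold change of -1.73 (SE 0.345; edgeR, adjusted p = 0.000808) was -1.09 length-adjusted and passed in all 18 alternatives. Hist1h3g had 0.0857, 0.771, 0 and 0.298 CPM in overexpression libraries, against 1.86, 0.751, 0.937 and 1.54 CPM in controls, with overexpression library 2 above the lowest control. Its log2 fold change was -1.83 (SE 0.591; edgeR, adjusted p = 0.0157), -0.78 length-adjusted, and -3.08 without overexpression library 2. Hist2h3c1 had 0.983 ± 0.485 CPM in overexpression libraries and 1.96 ± 0.207 CPM in controls (log2 fold change -1.05, and -0.60 length-adjusted), and Hist2h3c2 had 0.368 ± 0.298 and 1.14 ± 0.465 CPM (log2 fold change -1.73, and -1.0 length-adjusted). The calls of Hist1h3g, Hist2h3c1 and Hist2h3c2 were lost with the length trend removed, and that of Hist2h3c1 also without overexpression library 2 (edgeR, adjusted p = 0.052). No stretch of 100 bases of Hist2h3c1 was unique to it among annotated transcripts. Gm20634, a processed transcript, overlaps it on the same strand, so the shared stretches need not come from histone copies.

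Of the H4 genes, all of which encode the same protein, Hist1h4i was the most abundant. It had 3.26, 2.37, 2.88 and 2.61 CPM in overexpression libraries, against 12.7, 10.5, 5.62 and 12.7 CPM in controls. The groups did not overlap, and control library 3 was again the lowest control. The log2 fold change of Hist1h4i was -1.90 (SE 0.255; edgeR, adjusted p = 4.42e-05) and -0.95 length-adjusted, and it passed in all 18 alternatives. Hist1h4h had 0.171, 0.22, 0.262 and 0.819 CPM in overexpression libraries, against 2.21, 2.36, 1.5 and 3.84 CPM in controls, from 20 and 143 counts in all. Overexpression library 4 was above the other 3 and still below every control. Hist1h4h reached the level of the count filter in fewer than 4 overexpression libraries. The log2 fold change of Hist1h4h, -2.71 (SE 0.453; edgeR, adjusted p = 0.000223), was the lowest of the 24 tested histone genes, and was -1.60 length-adjusted. Hist1h4n, at 0.538 ± 0.374 CPM in overexpression libraries and 0.866 ± 0.461 CPM in controls, had a log2 fold change of -0.51 (SE 0.518), which did not pass and turned positive with the length trend removed (0.65).

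**Figure D5:**
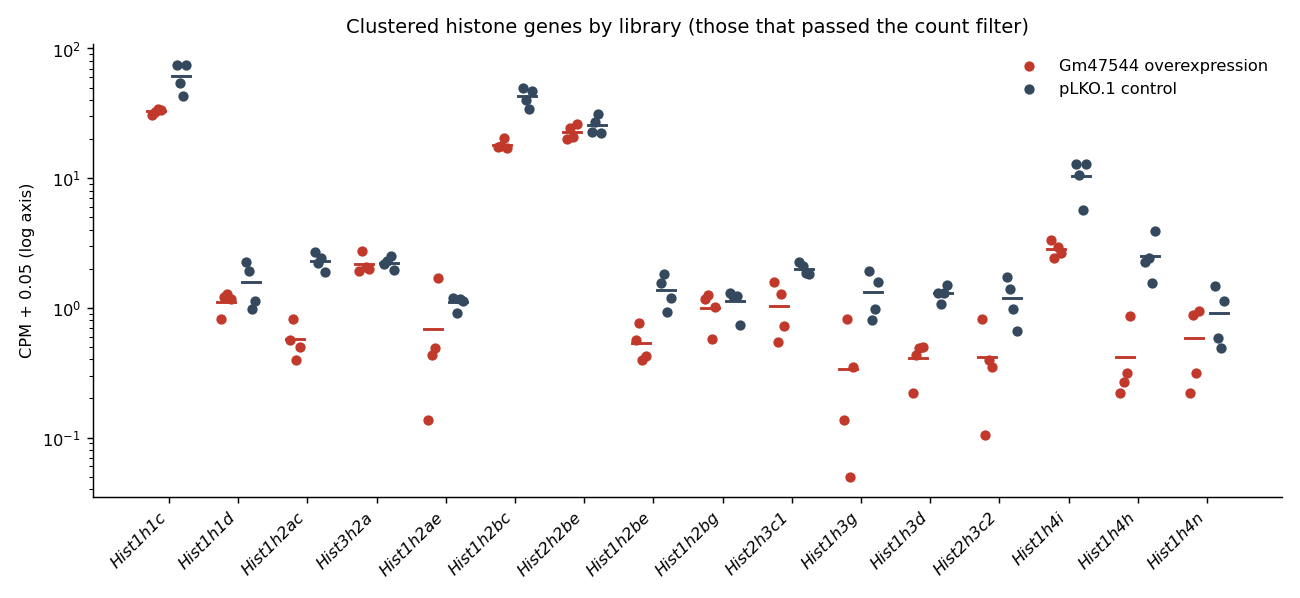
CPM plus 0.05 of the 16 clustered genes that passed the count filter, by class, on a log axis, with 1 point per library (4 overexpression libraries left, 4 controls right) and a line at the group mean. Hist1h1c, Hist1h2bc and Hist1h4i are the abundant genes with separate groups, and Hist2h2be is the abundant gene whose groups overlap.

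The other 51 clustered genes were too low for the test and summed to 9 ± 1.36 CPM in overexpression libraries and 15.3 ± 2.46 CPM in controls (SD, n = 4). Of them 7 had no count in any library. Of the 44 with counts, 34 had fewer and 10 had more counts per depth in the overexpression libraries. The exact 95% interval of the count ratio lay wholly below 1 for 19 genes and wholly above 1 for 2, and it covers counting error only. The matching shares over all genes below the filter were not computed, so whether these counts are unusual cannot be told. Hist1h2bl, an H2B gene, had 0 counts over the overexpression libraries and 10 over the controls, at least 3.09-fold lower (floor of 3 counts, taken over the 4 libraries, with the control counts as they stand). The exact 95% interval of its ratio per depth, which also covers counting error in the controls, reached up to 0.481. The following 3 genes were chosen after their values were seen. Hist1h3f, an H3 gene, had 4 counts over the overexpression libraries and 34 over the controls, a ratio per depth of 0.127 (0.0327 to 0.356). In the other direction, Hist1h1b, the gene of H1.5, had 14 and 1, a ratio of 15.1 (2.3 to 638), and the H3 gene Hist1h3a had 23 and 8, a ratio of 3.10 (1.34 to 8.01). Near-identical copies make single low genes uncertain, and no source used here says how the counting treated reads that fit several genes.

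Genes with and without the stem-loop pattern both had lower sums. The 44 clustered genes with it summed to 50.8 ± 1.99 CPM in overexpression libraries and 100 ± 21.7 CPM in controls, a log2 ratio of -0.98. The 23 without it, among them Hist1h2bc and Hist2h2be, summed to 43.2 ± 3.02 CPM in overexpression libraries and 73.8 ± 3.61 CPM in controls, a log2 ratio of -0.77. These ratios were not tested against each other. Genes without a match may carry the stem-loop past the end of their annotated transcripts, so this split follows the annotation.

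Genes that handle histone mRNA moved in both directions. Of 24 tested genes for histone gene transcription and mRNA 3′ end processing, 10 were higher and 7 lower, where 32.3% of all tested genes were higher and 32.1% lower. With the length trend removed, 9 were higher and 8 lower, where 29.6% of all genes were higher and 31.1% lower. The median log2 fold change was 0.30, and 0.22 length-adjusted, against 0.000406 and -0.00949 over all genes. Slbp, the gene of the stem-loop binding protein, had 90.5, 91.3, 102 and 98.2 CPM in overexpression libraries, against 218, 197, 253 and 146 CPM in controls, with no overlap. Its log2 fold change was -1.09 (SE 0.149; edgeR, adjusted p = 5.09e-05) and -1.27 length-adjusted. Nelfe, a subunit of the negative elongation factor, was lower (-0.69, and -0.28 length-adjusted). Tut7 (1.19, and 0.53 length-adjusted) and Tut4 (0.90, and 0.55 length-adjusted), which add uridines to RNA ends, were higher. Npat, the coactivator of clustered histone genes, was higher at 52.2 ± 1.45 CPM in overexpression libraries, against 28.3 ± 11.3 CPM in controls (log2 fold change 0.88, SE 0.206; edgeR, adjusted p = 0.00242; 0.70 length-adjusted). It was named after its values were seen, and control library 3, at 45.2 CPM, was the control nearest to the overexpression libraries.

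Of 40 tested genes for histone chaperones and deposition factors, 16 were lower and 7 higher, where 32.1% of all tested genes were lower and 32.3% higher, and the median log2 fold change was -0.24. With the length trend removed, 21 were lower and 6 higher, where 31.1% of all genes were lower and 29.6% higher. The lower genes included Asf1b (-1.75, and -1.39 length-adjusted), a chaperone of new H3 and H4, and Chaf1b (-1.44, and -1.47 length-adjusted), a subunit of the CAF-1 complex that deposits them on new DNA. Mcm2 (-1.49, and -1.77 length-adjusted), a helicase subunit that also binds H3 and H4, was lower too. Ubn2 (1.31, and 0.44 length-adjusted), a subunit of the HIRA complex that deposits H3.3, was higher. Both tested genes listed as further histone genes were lower. Cenpa, the gene of the centromeric H3 variant, had 38.5 ± 5.32 CPM in overexpression libraries and 77.8 ± 17.9 CPM in controls (log2 fold change -1.01, SE 0.168; edgeR, adjusted p = 0.000217; -1.19 length-adjusted). Hmga1 (-1.0, and -0.58 length-adjusted) encodes a chromatin protein that is not a histone.

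S phase genes, listed because clustered histone genes are expressed in that phase, were lower in 35 of 40 cases and higher in 1, where 32.1% of all tested genes were lower and 32.3% higher, with a median log2 fold change of -0.96. Ccne1, the cyclin E1 gene, had 1.86 ± 0.155 CPM in overexpression libraries and 13.1 ± 1.9 CPM in controls (log2 fold change -2.80, SE 0.177; edgeR, adjusted p = 1.84e-07; -2.51 length-adjusted). The helicase genes Mcm3 (-1.59, and -1.49 length-adjusted) and Mcm5 (-1.78, and -1.72) and the sliding clamp gene Pcna (-1.48, and -1.14) were also lower. E2f3 (0.56, and 0.44 length-adjusted) was the higher gene and was named after its values were seen. With the length trend removed, 33 of these 40 genes were lower and 1 was higher, where 31.1% of all genes were lower and 29.6% higher. The part of the S phase genes in the histone result was not tested.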

How the data were processed

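For 8 libraries the authors deposited a single table of unnormalized raw counts by gene symbol. The tools, per the submitters' processing notes, were STAR, HTSeq and FastQC, with mm10 as the build; no source used here gives versions, annotation or strand setting. RNA was isolated by Trizol and libraries made with an NEBNext Ultra kit, per the labels. Groups came from the sample titles. Gm47544 was not analysed here.

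Genes were kept by filterByExpr (minimum count 10; 11520 of 16281 genes with a count). With trimmed-mean scaling of libraries, the groups were compared with edgeR 4.0.16 (R 4.3.3), quasi-likelihood test, two-sided, group as the only term, Benjamini-Hochberg adjustment over all tested genes, called at 0.05; the common biological coefficient of variation came to 0.15. Standard errors are the log2 fold change over the square root of F. Alternatives used DESeq2 1.42.0, limma 3.58.1 (voom with quality weights), other scalings and filters, a replicate block, lowess trends (span 0.3) on exon length and GC content, and each library left out. No 2 libraries of a group matched within counting noise.

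All 81 members and 21926 of 21983 symbols matched GENCODE M21, which gave lengths and stem-loops; promoters are from RefSeq (GRCm38.p6). Members and gene lists were chosen with earlier results of these data known. Named genes were every variant with a count, in each clustered class the 3 tested genes with the highest mean CPM and up to 2 called genes with the largest change in each direction, members with 0 counts in one group and at least 10 in the other, and up to 4 called genes of each list with the smallest p. Hist4h4, Hist1h3e, Hist2h2ac, Hist1h2ag, Hist1h2bj and the cell type markers given by name were named after their values were seen. Hmga1 was listed as a histone gene by mistake, and Mcm2 stands in 2 lists. Low-count ratios carry exact 95% binomial intervals, and a group at 0 was set to a floor of 3 counts (0.0548 CPM in overexpression libraries, 0.0509 in controls). Intervals and floors cover counting error only. Figures were drawn with matplotlib 3.10.9.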

Additional observations from a re-analysis of the deposited data

Results flagged for a closer look

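In 4 cases a library lay far from the other 3 of its group in a tested histone gene or class sum, by Dixon's gap test at the 95% level over 58 groups of 4; chance gives about 1 in 20 groups. Hist1h4h was at 0.819 CPM in overexpression library 4, against 0.171 to 0.262 CPM in the other 3 overexpression libraries. Hist3h2a was at 2.7 CPM in overexpression library 2, against 1.89 to 2.01 CPM in the others. Hist1h2bc was at 20.2 CPM in overexpression library 3, against 17.1 to 17.5 CPM in the others. Hist1h2bg was at 0.691 CPM in control library 4, against 1.18 to 1.24 CPM in the other controls.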

How the results depend on the processing

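No variant was higher under any of the 18 alternatives, and the lower variants numbered 6 except with the trend on length (4), on GC content (8) or on both (5) removed. For clustered genes, 19 were lower with no filter on low counts, and 1 was higher with no filter and 1 with both trends removed. The median log2 fold change of clustered genes was -0.69 with the length trend removed, -0.67 with both trends removed and -1.38 in limma-voom, and ranged from -1.10 to -0.80 with each library left out. That of variants was -0.18 and -0.19 with the length trend or both trends removed and -0.50 with library totals alone, and ranged from -0.77 to -0.53 with each library left out. The log2 ratio of the summed CPM was -0.38 and -0.37 for clustered genes and -0.24 and -0.28 for variants with the length trend or both trends removed. Single values that turned positive with the length trend removed were Hist1h4n 0.65, Hist3h2a 0.36, Hist1h2ae 0.22, Hist1h2bg 0.81, H2afv 0.0633, Hist2h2be 0.0971, H3f3b 0.17 and H3f3a 0.0207. With both trends removed they were Hist1h4n 0.84, Hist3h2a 0.22, Hist1h2ae 0.43, Hist1h2bg 1.01 and H2afx 0.0393. Hist1h2bg was 0.0902 with the GC trend removed; with library totals alone Hist3h2a was 0.0989, H3f3b 0.0694 and H3f3a 0.0124, and Hist3h2a was 0.0465 in limma-voom. With single libraries left out, Hist3h2a ranged from -0.17 to 0.0292 and Hist1h2bg from -0.30 to 0.0312. The causes were not tested. Of the other single-gene values that could be fitted, 8 gained a call, 10 lost one and the rest kept theirs. Same-numbered libraries did not deviate together (correlations 0.029, -0.01, -0.0885 and -0.161; 0 of 4 overexpression libraries correlated best with their own number); a replicate block gave 10 lower clustered genes with a median of -1.16 and 6 lower variants with a median of -0.62. A single library decides the calls of Hist1h2ae and Hist2h3c1, as given above. Depth limits the 51 clustered genes below the filter.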
